A study of Mus musculus with 16 samples.

Results

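A group of 7 genes that was low in air and high in physioxia in wild-type (WT) marrow cells is described here: Eif3b, Rab5if, Zfp622, Ypel3, Msl3l2, Endog and Sap30. They are 7 of the 6288 genes of the table of normalized counts, and each was found there as 1 row by its Ensembl identifier. They were picked by name, with no stated threshold, because their normalized count rose steeply from WT air to WT physioxia. The WT groups did not overlap in 7 of 7 genes, as in 7.82% of tested genes, and nothing is read from this. Their ranks by that rise ran from 2 to 11 among 6110 tested genes. The WT values and every comparison that shares WT libraries are therefore descriptions with no test. The stated reason for the choice does not name the oxygen comparison in Tet2-deficient cells, which was tested. The genes were chosen with earlier results of these data known, and their description as low mainly in WT air refers to Tet2-deficient air too. This comparison may therefore not be independent of the choice. The description of these genes as low mainly in WT air held only in part: 2 of the 4 Tet2-deficient air libraries lay also below all 8 physioxia libraries in all 7 genes.

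RNA was sequenced in bulk from CD45-positive mouse bone marrow cells that had been enriched for lineage-negative, Kit-positive, Sca1-positive (LSK) cells, the fraction that holds haematopoietic stem and multipotent progenitor cells. The 4 groups had 4 libraries each: WT C57Bl/6J air, Tet2-deficient (Tet2-/-) air, WT physioxia and Tet2-deficient physioxia, all from mice of 3 to 4 months and of both sexes. Marrow of all groups was harvested at 3% oxygen, called physioxia, and the enriched cells either stayed there or spent 6 hours in ambient air, about 21% oxygen, before RNA extraction. The time is that of the RNA protocol, while the treatment protocol allows shorter stays in air, up to the same 6 hours. The labels call the replicates biological and matched but do not tie a number to an animal, so p-values measure the spread between these libraries. Tet2 encodes an oxygen-using enzyme that oxidizes methylated cytosine in DNA. Its transcript stood at 855 ± 157 normalized counts in WT air and, in the Tet2-deficient cells in air, at 554 ± 54.1 (SD, n = 4). In physioxia it stood at 731 ± 97.4 in WT and 482 ± 35.9 in Tet2-deficient cells. Its groups did not overlap between the genotypes in either oxygen condition. In physioxia 28% of tested genes were likewise lower in all Tet2-deficient than in all WT libraries. It remained detected in the Tet2-deficient cells, and the labels do not say which exons the allele lacks, so the count checks the genotype only in part.

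Recovered reads came to 7.77 to 15.7 M per library in the table, the 8 air libraries lying within 10.6 to 13.0 M. The table lists chosen genes, and how they were chosen is not given in the sources used here. Of 9 LSK markers 4 were in the table (Kit, Procr, Hlf and Slamf1; not Ly6a, which encodes Sca1, nor Cd34), at a summed normalized count of 4487 to 5428 (WT air), 6471 to 9206 (Tet2-deficient air), 2736 to 4742 (WT physioxia) and 6715 to 9268 (Tet2-deficient physioxia). Markers of other cells were detected in every library too. The 10 erythroid markers summed to 31594 to 69845 in WT libraries and 105947 to 295490 in Tet2-deficient libraries, and 8 neutrophil markers to 241511 to 382501 and 159429 to 239640. None of the 6 B cell markers was in the table. In bulk RNA, fewer cells of a type and less RNA per cell cannot be told apart.

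By known function the 7 genes fall into several groups. Eif3b and Zfp622 act in protein synthesis: the first is a scaffold subunit of eIF3, the complex that brings messenger RNA to the small ribosomal subunit, and the second is a late maturation factor of the large subunit. Rab5if is a small membrane protein of the endoplasmic reticulum that works with the insertase Tmco1 on multipass proteins, and Endog is a nuclease of mitochondria. Sap30 is a subunit of the Sin3 histone deacetylase complex, a corepressor, and Msl3l2 is a relative of the chromodomain protein Msl3 of the MSL histone acetyltransferase. Ypel3 belongs to the Yippee family of small zinc-binding proteins and is known to restrain growth of cultured cells.

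Because the 7 genes moved together over libraries, the sequence before their start sites was examined for short motifs. RefSeq promoters on GRCm38.p6 matched all 7 genes, and the 250 bases before the start were used. The motifs searched on both strands were 2 cores of the site of hypoxia-inducible factors (ACGTG and also GCGTG), the E-box CACGTG, which contains the first of these, the CCAAT box and the core of ETS factor sites (CCGGAA). Also searched were the GC box (letters GGGCGG), the TATA motif (letters TATAAA), the AP-1 motif (letters TGANTCA), the cyclic AMP motif, CRE (letters TGACGTCA), and the palindromic NRF1 motif. GCGTG was present in 6 of 7 promoters, all except that of Msl3l2, against 28.2% of 32851 promoters and 45.2% of the 4392 promoters of tested genes. ACGTG was present in 3 (Endog, Rab5if and Sap30; 16.6% of all promoters and 21.2% of those of tested genes). CCAAT was present in 3 (Endog, Rab5if and Ypel3; 33.8% and 36.0%), and CCGGAA in 3 (Rab5if, Ypel3 and Zfp622; 12.0% and 20.7%). GGGCGG was present in 4 (32.7% and 57.7%) and the letters TATAAA only in Eif3b (12.4% and 6.92%). The E-box, AP-1, CRE and NRF1 letters were in none of the 7 windows, against 7.88%, 4.49%, 2.91% and 1.64% of the promoters of tested genes. A match is a description of letters, not a site in use. The median number of CpG pairs was 14 in the 7 windows (5 to 36) and 15 in those of tested genes, and the median GC content was 58% and 59.6%.

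The 4 windows below show the range within the group: Rab5if, the promoter with the most CpG pairs; Sap30, read on the minus strand, which holds both hypoxia-factor cores; Eif3b, the gene with the highest level; and Msl3l2, which holds neither core. Capitals mark the 2 hypoxia-factor cores, the CCAAT letters and the ETS core, on either strand.
Rab5if (chr2:156862872-156863121, plus strand): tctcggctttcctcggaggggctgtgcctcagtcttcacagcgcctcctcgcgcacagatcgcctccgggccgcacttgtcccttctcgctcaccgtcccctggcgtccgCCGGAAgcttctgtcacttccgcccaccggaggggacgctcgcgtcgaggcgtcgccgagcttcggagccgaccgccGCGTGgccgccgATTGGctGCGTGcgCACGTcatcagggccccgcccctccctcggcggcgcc
Sap30 (chr8:57487861-57488110, minus strand): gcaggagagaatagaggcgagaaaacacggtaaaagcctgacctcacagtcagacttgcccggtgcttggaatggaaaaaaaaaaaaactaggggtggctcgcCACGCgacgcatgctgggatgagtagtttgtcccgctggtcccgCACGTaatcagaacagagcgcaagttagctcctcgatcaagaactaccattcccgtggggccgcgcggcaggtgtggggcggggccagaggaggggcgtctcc
Eif3b (chr5:140419055-140419304, plus strand): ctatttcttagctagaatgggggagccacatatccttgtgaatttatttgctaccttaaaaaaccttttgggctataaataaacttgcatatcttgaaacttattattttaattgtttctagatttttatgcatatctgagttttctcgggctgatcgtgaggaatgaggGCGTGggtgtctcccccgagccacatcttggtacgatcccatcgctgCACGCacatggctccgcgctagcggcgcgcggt
Msl3l2 (chr10:56106667-56106916, plus strand): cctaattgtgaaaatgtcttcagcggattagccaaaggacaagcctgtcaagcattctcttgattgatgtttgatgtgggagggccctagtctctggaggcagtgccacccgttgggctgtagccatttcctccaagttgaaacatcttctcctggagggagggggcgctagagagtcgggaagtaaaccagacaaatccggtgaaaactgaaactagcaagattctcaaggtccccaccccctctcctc

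The Rab5if window holds GCGTG at 63 and 44 bases before the start, ACGTG on the other strand at 37, CCAAT on the other strand at 51 and CCGGAA at 140, each distance being that of the match's first base. In Sap30, GCGTG and ACGTG were both on the other strand, at 147 and 103 bases before the start. The Eif3b window holds GCGTG at 80 and, on the other strand, at 33 bases. Its TATAAA letters, not capitalized above, lie at 177 bases before the start. A noncoding transcript on the opposite strand starts near 3 of the genes in the GENCODE annotation: 5430405H02Rik lies 164 bases from Rab5if, Gm9967 136 bases from Ypel3, and 2500002B13Rik 193 bases from Sap30. Of these, 2500002B13Rik was in the table. Its difference from air to physioxia was -0.27 (log2) in WT and 0.26 in Tet2-deficient cells, with adjusted p = 0.486 and 1 in limma, and neither difference passed the threshold of 0.05.

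Values below are normalized counts, which are read counts divided by 1 size factor per library, in the order of replicates 1 to 4. Log2 differences are physioxia minus air of log2(normalized count + 1), with the standard error (SE) of a limma fit over all 16 libraries, and they understate the change of low genes. The WT contrast, used for the choice, called 352 of 6110 genes (5.76%), and the Tet2-deficient contrast called none (percentage of genes called: 0). In the Tet2-deficient contrast 280 genes had an unadjusted limma p below 0.05, edgeR called 0 genes and DESeq2 called 9.

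Eif3b (ENSMUSG00000056076; GRCm38 chromosome 5, 140419328 to 140443360, plus strand, 20 exon blocks) was the most abundant of the 7. In WT air it stood at 1634, 1624, 4469 and 1683, and in Tet2-deficient air at 2179, 1934, 21866 and 21308. In WT physioxia it stood at 19577, 22837, 19840 and 20239, and in Tet2-deficient physioxia at 26995, 27693, 28081 and 29397. The 8 physioxia libraries were tight, with an SD on the log2 scale of 0.10 in WT and 0.05 in Tet2-deficient cells, whereas Tet2-deficient air split into a pair near the WT air level and a pair near the WT physioxia level. Eif3b was alone among the 7 in that its Tet2-deficient air and physioxia libraries did not overlap, higher in physioxia, a pattern that 2.32% of tested genes showed. The difference was 2.07 ± 0.64 (SE) in Tet2-deficient cells (limma, unadjusted p = 0.00532, adjusted p = 0.748, rank 3 of 6110 by size of rise) and 3.28 ± 0.64 in WT cells. With edgeR on the recovered reads, which compares means on the linear scale, the Tet2-deficient difference was 1.23.

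Zfp622 (ENSMUSG00000052253; chromosome 15, 25984366 to 25998481, plus strand) stood at 781, 1264, 3304 and 971 in WT air and at 2027, 1276, 6341 and 6247 in Tet2-deficient air. It reached 13946, 18357, 13093 and 7351 in WT physioxia and 6710, 5753, 4788 and 8949 in Tet2-deficient physioxia. Tet2-deficient air replicates 3 and 4 lay inside the Tet2-deficient physioxia range, and the physioxia groups of the genotypes overlapped. The difference was 1.00 ± 0.50 in Tet2-deficient cells (limma, unadjusted p = 0.0637, adjusted p = 1) and 3.23 ± 0.50 in WT cells. The gene that flanks it in the table, Retreg1 (a receptor for autophagy of the endoplasmic reticulum), differed by 0.10 and 0.17 and did not pass the threshold in either genotype.

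Rab5if (ENSMUSG00000027637; chromosome 2, 156863128 to 156873563, plus strand) stood at 180, 233, 747 and 189 in WT air and at 741, 937, 2599 and 4379 in Tet2-deficient air. It reached 4059, 7589, 3107 and 1388 in WT physioxia and 2214, 1789, 2324 and 3150 in Tet2-deficient physioxia. The WT physioxia libraries spread 5.47-fold from lowest to highest, and Tet2-deficient air replicate 4 was above all 4 Tet2-deficient physioxia libraries. The difference was 0.47 ± 0.58 in Tet2-deficient cells (limma, unadjusted p = 0.432, adjusted p = 1) and 3.61 ± 0.58 in WT cells, the largest WT value of the 7. Its exons share 731 bases with Sla2, an adaptor of lymphocyte receptor signalling on the opposite strand. Whether the counting used strand is not given in the sources used here, so reads of the shared stretch cannot be assigned with certainty. Sla2 stood at 203 to 255 in WT air and 211 to 418 in WT physioxia, a difference of 0.24 ± 0.20 (limma, adjusted p = 0.566).

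Endog (ENSMUSG00000015337; chromosome 2, 30171493 to 30174069, plus strand) was a low gene in WT air, at 11, 16, 25 and 24 (11 to 25 reads per library), and stood at 36, 23, 193 and 526 in Tet2-deficient air. It reached 265, 694, 157 and 74 in WT physioxia and 172, 127, 201 and 236 in Tet2-deficient physioxia. In WT physioxia and Tet2-deficient air Endog had the widest groups of the 7, the highest library being 9.34 and 22.4 times the lowest. In Tet2-deficient cells the mean was 195 ± 234 in air and 184 ± 45.8 in physioxia (SD, n = 4). The log2 difference there was 0.88 ± 0.79 (limma, unadjusted p = 0.283, adjusted p = 1), opposite in sign to the means and to edgeR, which gave -0.089. In WT cells the difference was 3.51 ± 0.79. Endog shares 379 exonic bases with Spout1 on the opposite strand, which is not in the table.

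Sap30 (ENSMUSG00000031609; chromosome 8, 57482707 to 57487860, minus strand) stood at 354, 475, 1618 and 330 in WT air and at 1068, 654, 2285 and 2655 in Tet2-deficient air. It reached 4770, 7791, 4093 and 2416 in WT physioxia and 2611, 2102, 2408 and 2801 in Tet2-deficient physioxia. The split within Tet2-deficient air was the smallest of the 7, the lower of replicates 3 and 4 being 2.14 times the higher of replicates 1 and 2. The difference was 0.78 ± 0.49 in Tet2-deficient cells (limma, unadjusted p = 0.133, adjusted p = 1) and 3.00 ± 0.49 in WT cells.

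Msl3l2 (ENSMUSG00000047669; chromosome 10, 56106917 to 56116880, plus strand) lies within the span of Tbc1d32 on the opposite strand, with no exonic overlap. It stood at 20, 18, 75 and 18 in WT air, from 18 to 68 reads per library, and at 38, 32, 223 and 308 in Tet2-deficient air. It reached 262, 475, 269 and 223 in WT physioxia and 317, 251, 447 and 408 in Tet2-deficient physioxia. Its mean in physioxia was 355 ± 88.7 in Tet2-deficient and 307 ± 114 in WT cells (SD, n = 4), and the ranges overlapped. The difference was 1.83 ± 0.63 in Tet2-deficient cells (limma, unadjusted p = 0.0103, adjusted p = 0.934) and 3.41 ± 0.63 in WT cells. Its transcript aligns with that of Msl3 at 73.0% identity over 845 bases, and Msl3 is not in the table.

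Ypel3 (ENSMUSG00000042675; chromosome 7, 126776955 to 126780514, plus strand) stood at 158, 244, 860 and 274 in WT air and at 462, 194, 1752 and 1593 in Tet2-deficient air. It reached 2938, 2942, 2778 and 2014 in WT physioxia and 1695, 1659, 1665 and 1825 in Tet2-deficient physioxia. The Tet2-deficient physioxia libraries were within 1.10-fold of each other and all lay below the WT physioxia libraries. The difference was 1.27 ± 0.57 in Tet2-deficient cells (limma, unadjusted p = 0.0418, adjusted p = 1) and 3.09 ± 0.57 in WT cells. Its closest relatives by sequence, Ypel2, Ypel1 and Ypel4, align at 82.3%, 79.2% and 78.6% identity over 368, 355 and 313 bases and are in the table.

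**Figure D1:**
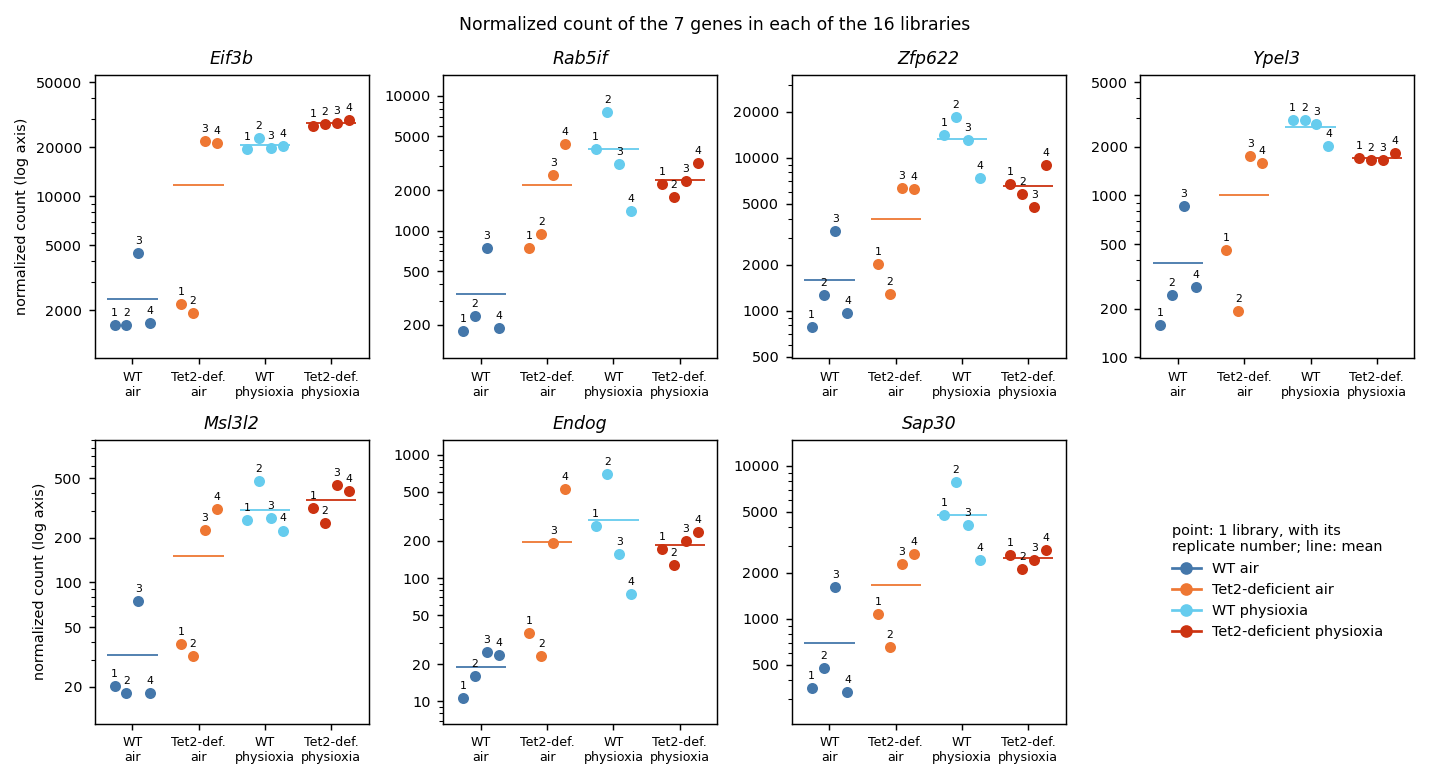
Normalized count (log axis) of the 7 genes in the 16 libraries, by group; each point is 1 library with its replicate number and each line is the group mean. In all 7 genes WT air replicate 3 is the highest of WT air, and Tet2-deficient air replicates 3 and 4 sit above replicates 1 and 2.

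Normalized per kilobase of exons, the order of the mean levels in WT air was Eif3b (703 normalized counts per kb), Sap30 (589), Zfp622 (222), Ypel3 (208), Rab5if (117), Endog (17.9) and Msl3l2 (15.3). In WT physioxia it was Eif3b (6164), Sap30 (4047), Zfp622 (1849), Ypel3 (1444), Rab5if (1406), Endog (279.9) and Msl3l2 (143). The order of the means was the same in both WT groups. In WT air, neighbours in it differed by less than the SD of the higher gene, except Rab5if and Endog. In WT physioxia the same held for Zfp622 with Ypel3, Ypel3 with Rab5if, and Endog with Msl3l2. In Tet2-deficient physioxia Ypel3 (926), Zfp622 (919) and Rab5if (825) were close to each other, below Eif3b (8381) and Sap30 (2106) and above Endog (173) and Msl3l2 (166).

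The air libraries were not uniform, and the same libraries stood apart in all 7 genes. WT air replicate 3 was the highest WT air library for 7 of 7 genes, as for 32.4% of tested genes, at 1.5 times the mean of the other 3 libraries in Endog and 2.71 to 4.19 times in the others. It still lay below every WT physioxia library, at 22.8% (Eif3b) to 66.9% (Sap30) of the lowest one. In Tet2-deficient air, replicates 3 and 4 were both at least 2 times above replicates 1 and 2 in 7 of 7 genes, and 222 of 6110 tested genes (3.63%) showed that pattern. The reverse pattern was shown by 48 genes (0.786%). The lower of replicates 3 and 4 was 2.14 times (Sap30) to 9.78 times (Eif3b) the higher of replicates 1 and 2.

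Set against physioxia, all 14 values of the 7 genes in Tet2-deficient air replicates 1 and 2 were below the lowest Tet2-deficient physioxia library, and 13% of tested genes had both replicates below it. Of the 14 values in replicates 3 and 4, 8 were inside the Tet2-deficient physioxia range, 4 below it and 2 above it, the 2 being Rab5if and Endog in replicate 4. Over all tested genes the shares of such values were 59.5%, 19.9% and 20.5%, so these counts were near the background. Set against WT air, 12 of the 14 values in replicates 1 and 2 were within the WT air range (14.8% over all tested genes), and 12 were above WT air replicates 1, 2 and 4 (46.2%). Replicates 1 and 2 were thus low, though mostly higher than 3 of the WT air libraries. In Tet2-deficient cells the SD of the log2 level of the 7 genes was 0.05 to 0.38 in physioxia and 0.95 to 2.07 in air. WT physioxia was less even, at 0.10 (Eif3b) to 1.35 (Endog), and its replicate 2 was the highest of its group in 7 of 7 genes (37.4% of tested genes) and replicate 4 the lowest in 6 of 7 (27.4%). The highest of all 16 libraries was WT physioxia replicate 2 for 6 genes (18.5% of tested genes) and Tet2-deficient physioxia replicate 4 for Eif3b.

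The library titles carry an S number, whose meaning the labels do not give: S39 to S42 are WT air, S43 to S46 Tet2-deficient air, S47 to S50 WT physioxia and S51 to S54 Tet2-deficient physioxia. In 7 of 7 genes every library from S39 to S44 was below every library from S45 to S54. That pattern was shown by 193 of 6110 tested genes (3.16%) and its reverse by 4 (0.0655%). The S number follows the groups, so it cannot be told apart from genotype and oxygen between groups, and its part in the split of Tet2-deficient air was not tested. On average over these 7 genes, Tet2-deficient air replicates 3 and 4 stood nearer to physioxia than to the other air libraries. Whether they carry the right oxygen label was not tested, and every Tet2-deficient air value here takes the labels as given.

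**Figure D2:**
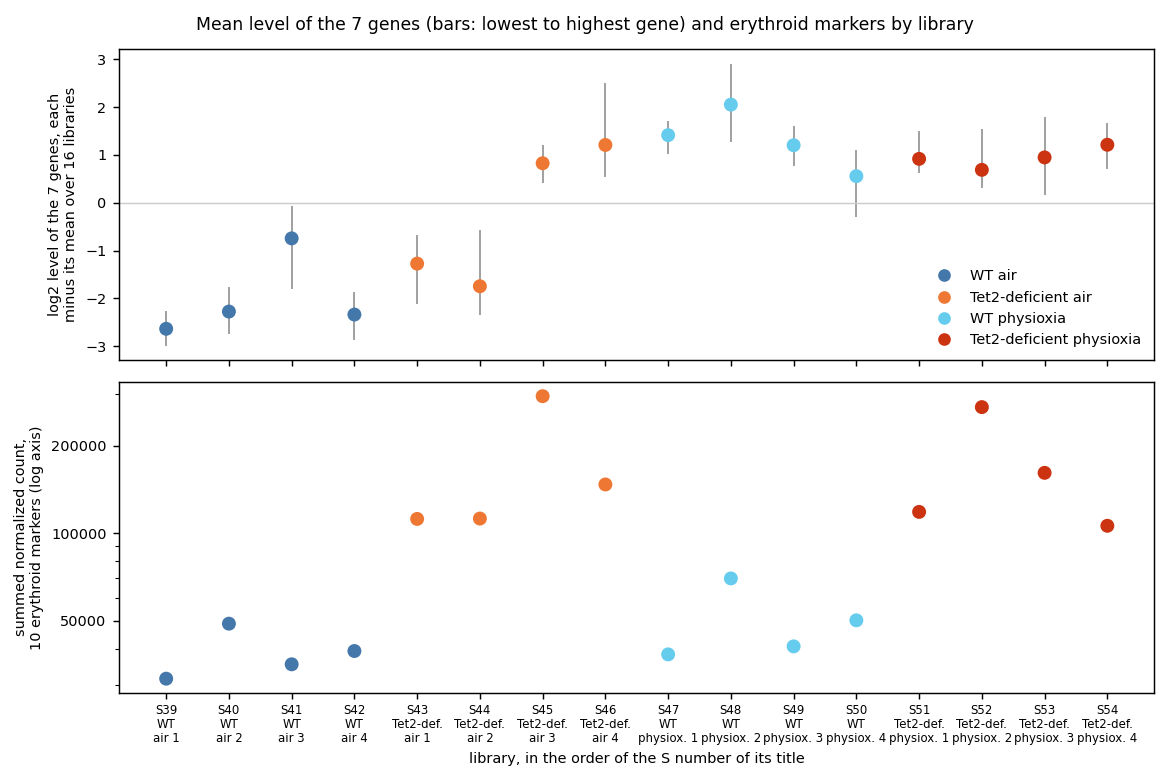
Top, the log2 level of the 7 genes after subtracting each gene's mean over 16 libraries, as their mean (point) and the range from lowest to highest gene (bar), by library in the order of S numbers; bottom, the summed normalized count of 10 erythroid markers (log axis). The mean of the 7 genes is -2.64 to -0.75 from S39 to S44 and 0.56 to 2.05 from S45 to S54, and Tet2-deficient physioxia replicate 2 has an erythroid sum of 271017 with a gene mean of 0.69.

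Markers of some cell types moved with part of this split. The summed count of the 10 erythroid markers in Tet2-deficient air was 111871, 112181, 295490 and 146929 in replicates 1 to 4, higher in the replicates in which the 7 genes were high. In Tet2-deficient physioxia it was 118259, 271017, 161098 and 105947, while the mean centred log2 level of the 7 genes was 0.92, 0.69, 0.95 and 1.21, lowest in the library with the highest erythroid sum. The 4 LSK markers summed to 9197, 9206, 6471 and 7975 in Tet2-deficient air, and for Tet2-deficient physioxia to 9268, 6715, 7780.4 and 7778. The 8 neutrophil markers summed to 214589, 208653, 159429 and 219979 in Tet2-deficient air. That sum did not follow the split, being lowest in replicate 3 and highest in replicate 4. Over the 8 Tet2-deficient libraries, which differ in oxygen too, the mean log2 level of the markers had a Pearson r with that of the 7 genes of 0.39 (erythroid), 0.73 (8 neutrophil markers) and -0.61 (LSK), and -0.62 to -0.33 for markers of megakaryocytes, monocytes, basophils, T and NK cells and dendritic cells. In WT air the erythroid sum of replicate 3, the highest for the 7 genes, was 35397 in a range of 31594 to 48831. In WT physioxia replicate 2, the highest of its group for the 7 genes, the erythroid sum was 69845 (the others 38292 to 50134), the neutrophil sum 382501 (241511 to 278718), the sum of 7 T and NK markers 44138 (27181 to 30377) and the LSK sum 2736 (4231 to 4742). No marker in the table was at 0 in any library. The part of cell composition in the levels of the 7 genes was not tested.

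Across genotype within physioxia the ranges overlapped for 5 of the 7 genes. Eif3b was higher in all 4 Tet2-deficient than in all 4 WT physioxia libraries, a pattern of 29.7% of tested genes, and Ypel3 was lower, a pattern of 28% of tested genes. The Tet2-deficient minus WT differences in physioxia (log2, SE of the fit) were 0.45 ± 0.64 for Eif3b, 0.24 ± 0.63 for Msl3l2, -0.26 ± 0.79 for Endog, -0.55 ± 0.58 for Rab5if, -0.62 ± 0.57 for Ypel3, -0.83 ± 0.49 for Sap30 and -0.97 ± 0.50 for Zfp622. In air the same differences were all above 0, from 1.20 ± 0.57 (Ypel3) to 2.59 ± 0.58 (Rab5if). The oxygen difference in Tet2-deficient cells minus that in WT cells ran from -3.14 ± 0.82 (Rab5if) to -1.21 ± 0.91 (Eif3b). These values share the WT libraries that chose the genes and were not tested.

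In the tested comparison, Tet2-deficient physioxia against air, none of the 7 genes passed an adjusted p of 0.05, as none of 6110 did, and the smallest adjusted p over all genes was 0.194 (limma). Eif3b, Msl3l2 and Ypel3 had an unadjusted limma p below 0.05, as did 280 of 6110 tested genes. With edgeR none of the 7 did, against 244 of 6110, and with DESeq2 1 did (Msl3l2), against 278 of 6110. All 7 fitted differences were above 0, with a median of 1.00 (0.47 to 2.07), against a median of -0.00 and 49.1% above 0 over all tested genes. Over the Tet2-deficient libraries the 7 genes varied together (Pearson r of 0.82 to 0.99 between pairs), so their signs are not independent of each other. With edgeR the differences ran from -0.089 (Endog) to 1.23 (Eif3b). The size of these differences rested on which air libraries entered. Without Tet2-deficient air replicates 1 and 2 they were 0.38 (Eif3b), 0.40 (Msl3l2), 0.03 (Ypel3), 0.02 (Zfp622), 0.00 (Sap30), -0.54 (Rab5if) and -0.82 (Endog). Without replicates 3 and 4 they were 3.77 (Eif3b), 3.27 (Msl3l2), 2.59 (Endog), 2.51 (Ypel3), 1.99 (Zfp622), 1.56 (Sap30) and 1.48 (Rab5if). These libraries were set aside for the levels of these same genes, so both sets of values are descriptions.

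**Figure D3:**
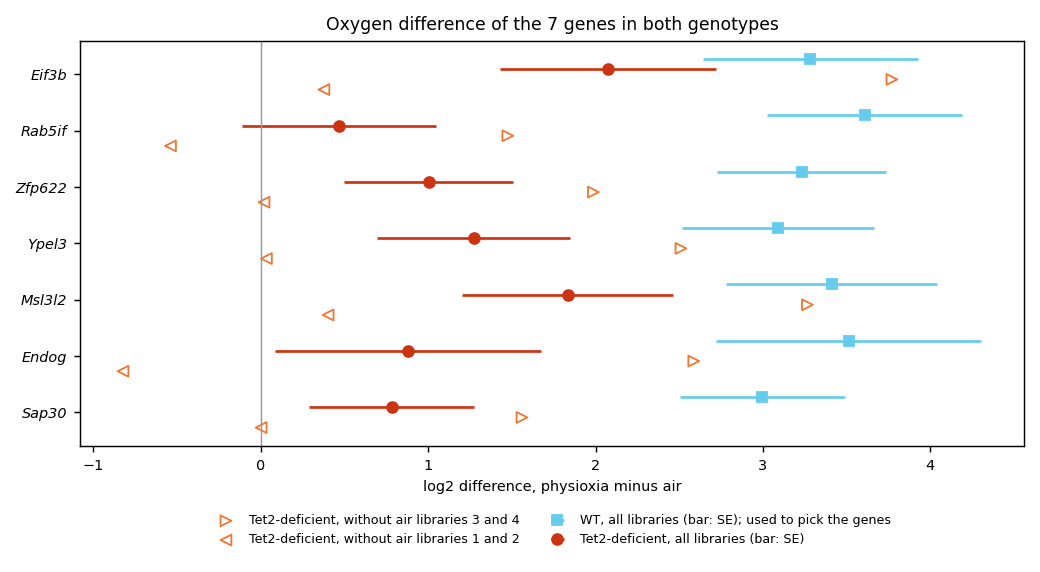
Log2 difference, physioxia minus air, of the 7 genes in WT cells (squares) and Tet2-deficient cells (circles) with the SE of the fit as bars, and in Tet2-deficient cells without air replicates 3 and 4 (right-pointing triangles) or without 1 and 2 (left-pointing triangles). The WT values, used to pick the genes, lie between 3.00 and 3.61, the Tet2-deficient values between 0.47 and 2.07, and the left-pointing triangles between -0.82 and 0.40.

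The 7 genes also varied together beyond the group means. Over 16 libraries the 21 pairs had a Pearson r of log2 levels of 0.88 to 0.98 (median 0.93), and over the 8 Tet2-deficient libraries of 0.82 to 0.99 (median 0.94). After subtraction of each group's mean, r was 0.77 to 0.95 (median 0.89), which includes the split of the air libraries. Within the 8 physioxia libraries alone it was 0.28 (Eif3b with Ypel3) to 0.99 (Rab5if with Sap30), with a median of 0.81. In the 4 WT physioxia libraries alone it was 0.22 to 0.998, with a median of 0.90. The pairs share libraries and size factors. No r of pairs of other genes was set beside these values, so they give no trait particular to the 7. Of 6103 other tested genes, 109 had an r over 0.9 with the mean profile of the 7, and 0 had an inverse r past the same limit.

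The other genes most like the mean profile over 16 libraries were Pip4p1, a phosphatidylinositol phosphatase (r = 0.99), Eif2b5, the catalytic subunit of the exchange factor of eIF2 (0.99), Gmcl1, a relative of germ cell-less (0.98), Mipep, a mitochondrial peptidase (0.98), and Rev1, a translesion DNA polymerase (0.98). Pip4p1 stood at 298, 201, 964 and 1074 in Tet2-deficient air, and Eif2b5 at 1704, 1433, 4942 and 5026, the same split as in the 7 genes. By gene, the most alike was Stt3b (oligosaccharyltransferase) for Eif3b, Edem1 (endoplasmic reticulum degradation) for Rab5if, Rev1 for Zfp622, Capns1 (the calpain small subunit) for Ypel3, Gmcl1 for Msl3l2, Rab24 (a small GTPase) for Endog and Pip4p1 for Sap30, with r of 0.96 to 0.99. These likenesses are descriptions over the libraries that show the split.

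Transcripts of the 7 genes were short for the table. Their exonic length had a median of 2140 bases against 4032 for 6103 tested genes with an annotation, and 6 of 7 were below that median, Zfp622 (7130 bases) being the exception. The number of exon blocks was below the median of 8 in 6 of 7, Eif3b (20) being the exception. The GC content of the transcript was 53.8% in the median against 49.2%, and 5 of 7 were above, up to 64.3% in Endog. No test was made of these features, and their part in the levels was not tested.

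Partner genes of the 7 were taken from 7 lists of their complexes and pathways. Of 61 list genes tested, the 7 themselves left out, 7 rose in WT physioxia and 0 fell (limma, adjusted p under 0.05), against 4.91% of all tested genes higher and 0.851% lower. With a term for the replicate number, which pairs the WT libraries, 11 were called, the 7 and also Rrs1, Ing2, Ypel1 and Get4. That fit called 462 of all 6110 tested genes, 393 higher and 69 lower. In Tet2-deficient cells 0 of 61 were called. When the adjustment also counted the annotated genes that the table leaves out, as if none had changed, 0 of the 7 calls held (adjusted p = 0.0868 to 0.338).

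In translation initiation, 15 of 41 listed genes were in the table, among them 5 of 14 eIF3 subunit genes, and 2 of 14 tested partners rose. Eif2b5 rose by 2.45 ± 0.41 in WT cells (log2, SE; limma, adjusted p = 0.00955), from 624 to 1870 in air to 3541 to 8954 in physioxia, and differed by 0.82 ± 0.41 in Tet2-deficient cells (adjusted p = 1). Eif3f, another eIF3 subunit, rose by 1.52 ± 0.40 (adjusted p = 0.0372), a call lost in 10 of 31 alternatives. Its Tet2-deficient air values were 3080, 10325, 9931 and 12918, so that replicate 2 was high there, unlike in Eif3b. The median of the 14 was 0.16, against 0.01 over all tested genes. In assembly of the large ribosomal subunit, the list of Zfp622, 0 of 6 tested partners passed the threshold (median 0.15). With the replicate block 1 did, the ribosome assembly factor Rrs1 (1.38 ± 0.33, limma adjusted p = 0.0336, and 0.111 without the block).

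In the Sin3 complex, the list of Sap30, 1 of 8 tested partners rose: Hdac2, a histone deacetylase, by 2.18 ± 0.43 (limma, adjusted p = 0.0112). Hdac2 stood at 573, 696, 2254 and 2606 in Tet2-deficient air, the same split as in Sap30. With the replicate block Ing2, a reader of histone methylation, was also called (1.5 ± 0.37, limma adjusted p = 0.0337, and 0.0880 without the block). In the MSL and NSL acetyltransferase complexes, 2 of 5 tested partners rose. Msl1, the scaffold of MSL, rose by 1.16 ± 0.30 (adjusted p = 0.0349, lost in 7 of 31 alternatives), and Kansl2, of the NSL complex, by 0.95 ± 0.19 (adjusted p = 0.0113, and 0.0667 with only the WT libraries in the fit). Among partners of Rab5if in membrane protein insertion and the Rab5 genes, 2 of 13 rose. These were Emc10, of the ER membrane complex (1.47 ± 0.27, adjusted p = 0.00964), and Rab5a, an early endosome GTPase (2.34 ± 0.49, adjusted p = 0.0133). With the replicate block Get4, of the tail-anchored protein pathway, was also called (1.11 ± 0.28, limma adjusted p = 0.0376, and 0.0876 without the block). Of the Yippee family and the CTLH ubiquitin ligase 0 of 9 tested partners of Ypel3 passed the threshold (median 0.11). With the replicate block its relative Ypel1 did (0.81 ± 0.18, limma adjusted p = 0.0215, and 0.0791 without the block). Of mitochondrial DNA and apoptogenic factors 0 of 6 partners of Endog passed, with or without the block (median -0.18).

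**Figure D4:**
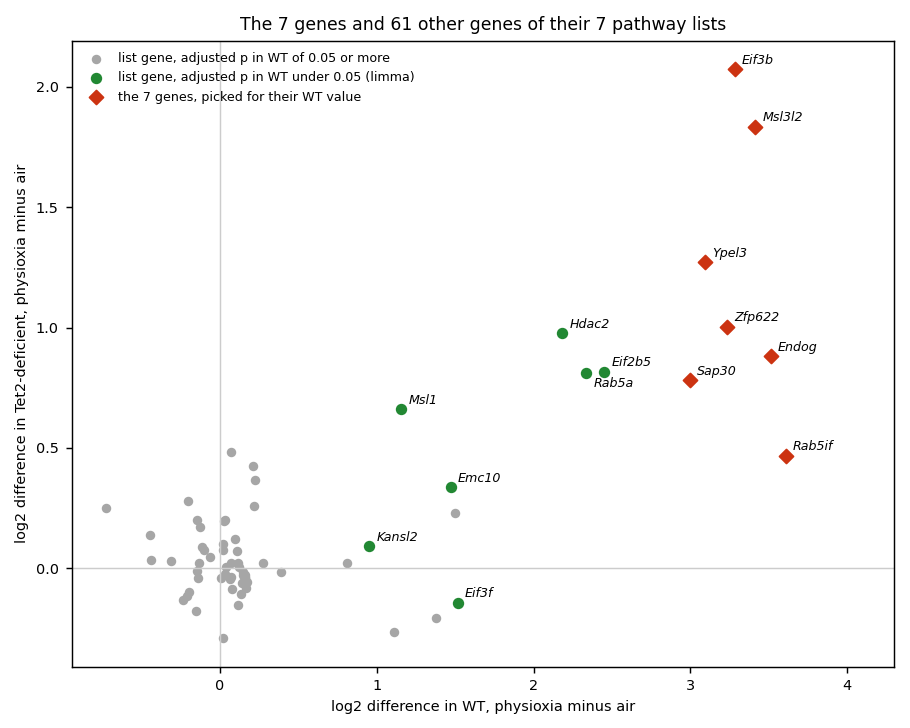
Log2 difference, physioxia minus air, in WT (horizontal) and Tet2-deficient cells (vertical) of 61 genes of 7 pathway lists (circles, green where the WT adjusted p in limma was under 0.05) and of the 7 genes (diamonds). The 7 green circles lie at WT values of 0.95 to 2.45, and the diamonds, picked for their WT value, at 3.00 to 3.61.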

How the data were processed

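The deposited table holds a signal made by the authors, normalized counts per gene, that is, read counts divided by 1 size factor per library, per the labels and the file name. FastQC, cutadapt, STAR, HTSeq, DESeq2 and GRCm38 are named, per the submitters' processing notes, with no versions. The labels state RNA integrity numbers over 7, a low-input paired-end library kit and about 30 M reads per sample. Dividing each library's values by its smallest step gave whole numbers within 0.01 for 100% of values, so reads were recovered (7.77 to 15.7 M per library in the table), and edgeR on them called 334 genes in WT and 0 in Tet2-deficient cells.

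A gene was tested if 4 or more libraries reached a normalized count of 10, which kept 6110 genes, all 7 described here among them, and left out 178. After adding a pseudocount of 1 and taking log2, limma 3.58.1 in R 4.3.3 fitted a mean per group over the 16 libraries with an intensity trend. Tests were two-sided, and calls needed an adjusted p (Benjamini-Hochberg) below 0.05. Alternatives used edgeR 4.0.16, DESeq2 1.42.0, other scalings, pseudocounts, filters and array weights, a replicate block, and left-out libraries. The adjustment covers chosen genes and is lenient. The scripts were tested on simulated data. Gene names and positions are from GENCODE on GRCm38, matched by identifier (6278 genes had a symbol, 10 none); promoters are from RefSeq on GRCm38.p6, and transcripts were aligned with BLAST 2.17.0 (at least 150 bases and 70% identity).

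The 7 genes and all lists were chosen with earlier results of these data known. Named genes were the 7, Tet2, per pathway list up to 3 called genes per direction by p, the 5 genes most like the mean profile and the 1 most like each gene, and neighbours in the table. Neighbours that the table lacks (Spout1, Tbc1d32, 5430405H02Rik and Gm9967), relatives by sequence (Msl3, Ypel1, Ypel2 and Ypel4) and partners called only with the replicate block (Rrs1, Ing2, Ypel1 and Get4) were added outside this rule. Symbols of the form Gm plus digits, ending in Rik, or identifiers were left out of the likeness search. A gene of the marker lists is not reported here. Same-numbered air and physioxia libraries deviated together in WT (r = 0.33, 0.18, 0.16 and 0.33 for replicates 1 to 4 over genes, each highest with its own number), so the numbers were taken to pair the WT libraries. In Tet2-deficient cells they did not meet the same rule.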

Additional observations from a re-analysis of the deposited data

Results flagged for a closer look

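WT air replicate 3 stood apart from the other 3 libraries of its group in 5 of the 7 genes. The gap from its value to the next, as a share of the group's whole range, was 0.979 for Eif3b (4469 normalized counts, the others 1624 to 1683), 0.905 for Rab5if (747, the others 180 to 233) and 0.835 for Ypel3 (860, the others 158 to 274). It was 0.963 for Msl3l2 (74.9, the others 18.1 to 20.2) and 0.887 for Sap30 (1618, the others 330 to 475). The limit was Dixon's 95% critical value for 4 samples, which chance passes in about 1 in 20 groups of normally distributed values. The gaps were taken on normalized counts, not on log2 levels, so that rate may not apply here. Gaps on the log2 scale were not tested. Of 32 groups examined (the 7 genes and Tet2 in 4 groups each), these 5 passed, all in the same library, so they are not independent of each other.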

How the results depend on the processing

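Counts of calls moved with the processing. In Tet2-deficient cells 0 genes were called, against 9 with DESeq2, 1 with a pseudocount of 10, 1 with array weights and 152 without Tet2-deficient air replicates 3 and 4, and 0 to 1 when 1 library was left out. In WT cells 352 were called, against 539 with DESeq2, 782 with array weights, 0 when the adjustment also counted the annotated genes that the table leaves out as not changed, and 128 to 554 when 1 library was left out. Of the partner genes in WT cells 7 were called, against 11 with DESeq2, 12 with array weights (11 higher, 1 lower), 0 with that wider adjustment, and 5 to 11 when 1 library was left out. Among fits with 1 library left out, the lowest WT count, 128, was without WT air replicate 4 and also without WT physioxia replicate 1, and the highest counts, 554 and 11, were without WT physioxia replicate 4.

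Of the 7 genes 0 were called in Tet2-deficient cells, also in each fit with 1 library left out (0 to 0), and 5 (Eif3b, Zfp622, Ypel3, Msl3l2 and Endog) without Tet2-deficient air replicates 3 and 4 (2.49% of all tested genes were called there), a set chosen after seeing the data by these genes' own values. The sign reversed for Rab5if (-0.54) and Endog (-0.82) without Tet2-deficient air replicates 1 and 2, with or without WT air replicate 3, and for Endog with edgeR (-0.089) and DESeq2 (-0.079). The replicate block called 11 partner genes and 462 genes in WT, 0 genes in Tet2-deficient cells (328 at an unadjusted p below 0.05) and 0 of the 7; beside the added partner genes, it changed no call of a named gene. In Tet2-deficient cells r between same-numbered libraries was 0.32, -0.27, 0.04 and -0.01, and 1 of 4 air libraries correlated best with its own number. Air replicates 1 and 2 correlated best with physioxia replicate 1. Air replicate 3 did so with physioxia replicate 2, and air replicate 4 with physioxia replicate 3. The erythroid sum was highest in Tet2-deficient air replicate 3 (295490) and in Tet2-deficient physioxia replicate 2 (271017). These values show no pairing by number, but they cannot tell whether the libraries came from matched animals. The block joined same-numbered libraries, and another pairing of the Tet2-deficient libraries was not tested. Depth limits Endog and Msl3l2 in WT air, at 11 to 68 reads per library.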
